A study of Mus musculus with 35 samples.

Results

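The dose trend described here runs over the 6 styrene concentrations from 0 to 40 ppm, which took in 30 of the 35 arrays of the series. Arrays were chosen by the dose in their labels alone, 5 each for air only (0 ppm) and for 1, 5, 10, 20 and 40 ppm, and the 5 arrays at 120 ppm were left out of the fit. Every array carried whole-lung RNA of an adult male C57Bl/6 wild-type mouse that had inhaled styrene or air once for 6 h and was killed on the following morning. Whole lung mixes epithelial, vascular, stromal and blood cells, so fewer cells of a type and less RNA per cell cannot be told apart in any of the values below. The labels do not give the exposure chamber, the plate or the scan of an array. P-values measure the spread between the arrays of a dose. The title number 15 is carried by both 1 ppm replicate 5 and 5 ppm replicate 1, which were grouped by their dose labels.

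Styrene is a volatile aromatic solvent. In mouse lung it is oxidised to styrene oxide and ring-opened products, mostly by Cyp2f2 in the club cells of the small airways, with a part for Cyp2e1. Injury of these cells is usually followed by division of surviving epithelial cells, by repair keratins and matrix, and by inflammatory and interferon signals. A dose series shows whether a gene follows the dose in proportion to its logarithm, switches between neighbouring doses, or turns back at the upper doses.

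The values were log2 probe set signals from Affymetrix HT MG-430 PM arrays, with 17097 genes each read through its brightest probe set among those listed for 1 gene. A gene's slope was its change in log2 level per unit of log2(ppm + 1), fitted with limma to 1 mean per dose, and a gene was called at an adjusted p under 0.05 over all 17097 genes. The shape of a gene was the pattern with the highest absolute correlation to its 6 group means: a straight line, a step between neighbouring doses, or a hump or dip that lasts over some of the inner doses. With 6 means the patterns lie close together, and for 1969 of the 5010 genes with a slope (39.3%) the best and next best kind of shape differed in r by under 0.05. Array medians ran from 4.59 to 4.749, and the highest control probe set for nonspecific binding was 4.574 on 5 ppm replicate 4 and 5.334 to 6.432 on the others. A level below its array's own highest nonspecific control is called dim here, and a fold that involves dim arrays is given as a lower bound with those arrays set to that control. For a segment that rests on dim arrays the adjusted p is given without its size.

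Several arrays stood apart. At 0 ppm, replicate 1 had Saa3 at 8.79, against 4.9 to 5.73 on the other air arrays, and Timp1 at 8.95, against 6.88 to 7.45. Without that array 2581 genes had a rising slope and 2342 a falling one, against 2511 and 2499 with it. Hepatocyte markers were dim on average (8 of 8 measured), yet their mean level reached 8.575 on a 0 ppm array, 9.188 on a 1 ppm array and 8.022 on a 20 ppm array, against at most 4.637 at 5, 10 and 40 ppm. Cardiac muscle markers likewise spread from 5.922 to 10.59 over the 30 arrays. Lung markers were bright, with Scgb1a1, the main secretory protein of club cells, at 13.71 to 13.97 on all 30 arrays and alveolar type 2 markers at a mean of 11.9 to 12.09.

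A slope was called for 5010 genes (29.3%), 2511 higher with dose (14.7%) and 2499 lower (14.6%). These shares, and those given for the segments, are the background for every list count below. Most slopes were shallow: the median was 0.0773 among the rising and -0.0707 among the falling genes, against 0.000187 over all genes, and 336 rising and 139 falling genes spanned 1 log2 unit or more between their highest and lowest group mean. Among the rising genes the median difference from 0 ppm was -0.0261, 0.112, 0.231, 0.323 and 0.354 at 1, 5, 10, 20 and 40 ppm. Among the falling genes it was -0.0126, -0.0886, -0.291, -0.352 and -0.308 at 1, 5, 10, 20 and 40 ppm. The typical gene with a slope thus did little at 1 ppm, moved mostly between 1 and 20 ppm, and was flat or turned slightly back at 40 ppm.

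Each dose was also set against the dose below it in the same fit, a comparison added after the data had been seen. At 1 ppm against 0 ppm no gene was higher and 1 was lower, Cd300c2, a myeloid surface receptor, at a mean of 7.07 at 1 ppm and 7.74 at 0 ppm (difference -0.667 ± 0.113 SE, limma adjusted p = 0.0403). In that comparison 1817 genes had an unadjusted p under 0.05. At 5 ppm against 1 ppm 479 genes were higher and 158 lower. At 10 ppm against 5 ppm 414 were higher and 1023 lower. At 20 ppm against 10 ppm the counts were 43 and 28, and at 40 ppm against 20 ppm they were 1 and 1. Called genes were thus first many between 1 and 5 ppm, where most were higher, and next between 5 and 10 ppm, where most were lower. An unadjusted limma p under 0.05 was held by 2771 genes at 5 against 1 ppm and 3642 at 10 against 5 ppm. The number was 1607 at 20 against 10 ppm and 2837 at 40 against 20 ppm. The calls therefore do not rank the intervals by their amount of change.

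**Figure D1:**
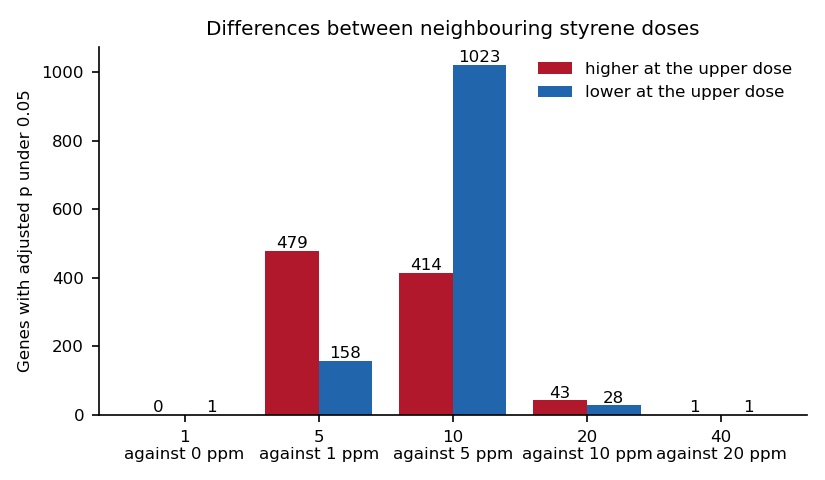
Number of genes called at each styrene dose against the dose below it (vertical axis; limma, adjusted p under 0.05, 17097 genes, 5 arrays a group), with genes higher at the upper dose in red and lower in blue. The calls concentrate at 5 against 1 ppm (479 and 158) and at 10 against 5 ppm (414 and 1023), with 1 and 1 at 40 against 20 ppm.

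Cd300c2 and Sncg are named because these counts are small, not by the rule for the other genes. The 2 genes separated at 40 ppm against 20 ppm were Retnla, a resistin-like secreted protein of the allergic response, at 11.73 at 40 ppm and 12.48 at 20 ppm (difference -0.757 ± 0.134 SE, adjusted p = 0.0427), and Sncg, a synuclein, at 5.92 at 40 ppm and 4.98 at 20 ppm (difference 0.941 ± 0.166 SE, adjusted p = 0.0427). At 40 ppm against 20 ppm 2837 genes had an unadjusted p under 0.05. By contrast 1230 genes were higher and 520 lower at 40 ppm than at 10 ppm. The differences between 10 and 40 ppm were thus called for many genes, but few were placed on either side of 20 ppm.

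The planned segments summarised the same path. The low segment set 5 ppm against the mean of 0 and 1 ppm, the middle segment the mean of 10 and 20 ppm against 5 ppm, and the top segment 40 ppm against the mean of 10 and 20 ppm. The low segment held 403 higher (2.36%) and 82 lower genes (0.48%), the middle segment 675 higher (3.95%) and 1454 lower (8.5%), and the top segment 1010 higher (5.91%) and 431 lower (2.52%). The low segment held 323 genes in all without 5 ppm replicate 4, and the top segment 564 without 40 ppm replicate 4. With the poly-A control level of each array as a covariate they held 974 and 510. With the 10 ppm arrays left out, the top segment, then 40 ppm against 20 ppm, called 0 genes in limma while 2691 had an unadjusted p under 0.05. It was then not called for Acaa1b (adjusted p = 0.0979), Ccl24 (0.172), Pdia4 (0.139), Pitpnm3 (0.104), Prss22 (0.111) or Retnla (0.104), whose values follow.

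Scores on the first principal component, which took 26.4% of the variance of the 17097 genes, moved over the same intervals. They averaged -21.8 ± 4.75, -23.8 ± 5.92, -3.58 ± 3.42, 17.7 ± 4.09, 19.3 ± 3.42 and 12.2 ± 3.02 at 0, 1, 5, 10, 20 and 40 ppm (SD, n = 5 each). The 5 ppm arrays (-8.28 to 0.528) overlapped with no other dose, the 0 and 1 ppm arrays overlapped with each other, and the 40 ppm arrays (7.43 to 15.7) overlapped with those at 10 ppm and 20 ppm.

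**Figure D2:**
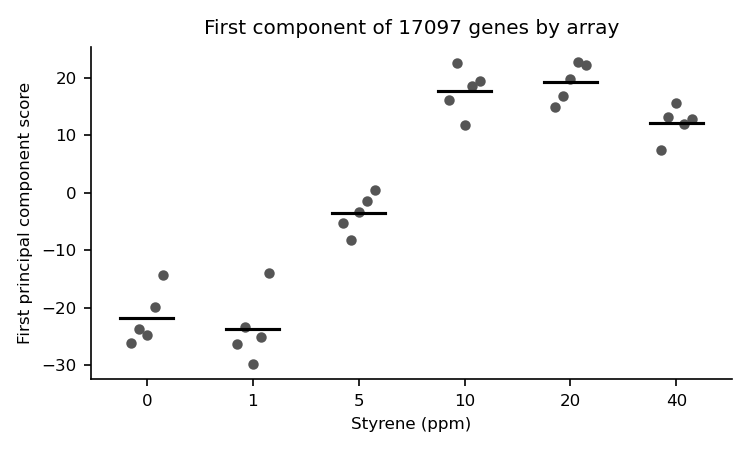
First principal component score (vertical axis, arbitrary units) of each of the 30 arrays by styrene dose in ppm, 1 point per array with a bar at the group mean. The groups average -21.8 at 0 ppm and -23.8 at 1 ppm, the 5 ppm arrays lie between the lower and the upper doses, and every array from 10 ppm upward is at 7.43 or higher.

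Steps were the most frequent best match in both directions. There were 5 step and 10 hump templates against 1 line, so a line had fewer chances to match best. Of the 2511 rising genes 1604 (63.9%) matched a step best, 578 (23%) a line and 329 (13.1%) a hump or dip. Of the 2499 falling genes 1601 (64.1%) matched a step, 407 (16.3%) a line and 491 (19.6%) a hump or dip. Rising steps were spread over the range, with 433 between 1 and 5 ppm, 552 between 5 and 10 ppm, 363 between 10 and 20 ppm and 223 between 20 and 40 ppm. Falling steps were gathered between 5 and 10 ppm (1030 genes). There were 203 between 1 and 5 ppm, 214 between 10 and 20 ppm and 91 between 20 and 40 ppm. The direct comparisons called 43 genes higher and 28 lower at 20 ppm against 10 ppm. They called 1 higher and 1 lower at 40 ppm against 20 ppm. Most steps placed above 10 ppm are thus template matches and not called differences between those doses. The direct test of departure from a line called 1985 genes (11.6%), of which 1284 also had a slope, 25.6% of the genes with a slope. Among the genes given a step, 466 of the 1604 rising and 352 of the 1601 falling genes departed from a line. Among the 985 genes given a straight line, 12 rising and 9 falling genes still departed from it.

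**Figure D3:**
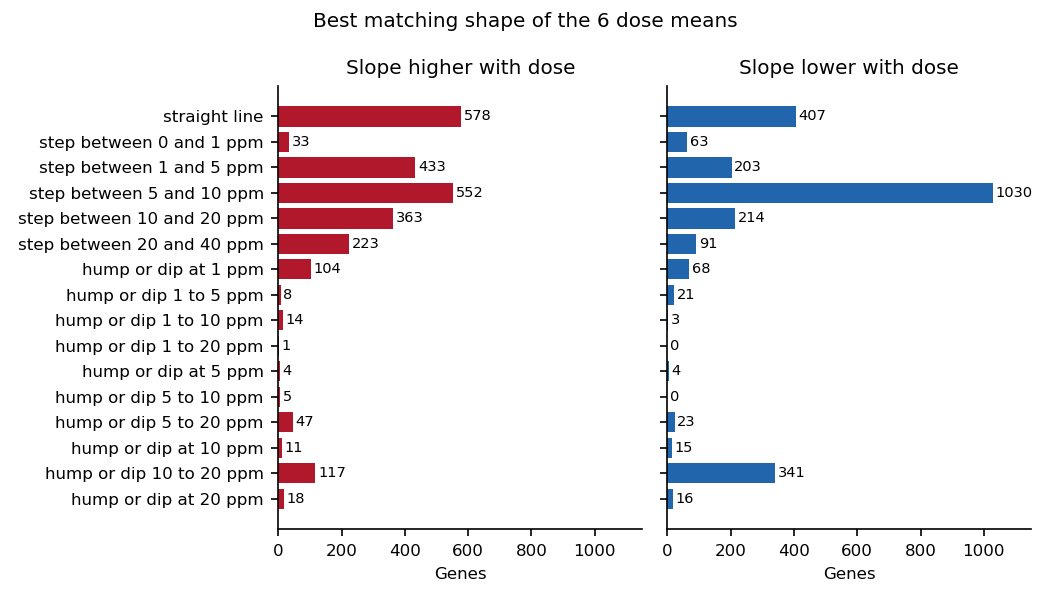
Number of genes (horizontal axis) with a rising slope (left, red) and a falling slope (right, blue), by the shape that best matched the 6 dose means. The longest bars are the falling step between 5 and 10 ppm (1030 genes), the rising line (578) and the rising step between 5 and 10 ppm (552).

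Genes that respond to interferon switched on between 1 and 5 ppm. All 20 measured genes of the interferon response list rose with dose, against 14.7% of all genes, 20 of 20 departed from a line, 20 of 20 were higher in the low segment, and 19 matched a step. The list's median difference from 0 ppm was -0.173, 2.36, 2.77, 2.54 and 2.16 at 1, 5, 10, 20 and 40 ppm. In the middle segment 4 of the 20 were higher, and in the top segment 7 were lower and none was higher. Irf7, a transcription factor that interferons induce, drives further interferon genes.

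Irf7 had log2 levels of 5.82, 5.81, 6.12, 6.32 and 6.5 at 0 ppm, 6.09, 5.42, 6.18, 6.35 and 6.13 at 1 ppm and 9.66, 9.54, 8.88, 9.71 and 9.57 at 5 ppm. Its arrays had 9.44, 10.0, 9.96, 9.46 and 9.87 at 10 ppm, 9.3, 9.68, 9.2, 9.65 and 9.24 at 20 ppm and 9.34, 9.05, 9.56, 9.44 and 9.57 at 40 ppm. All 20 arrays from 5 ppm upward lay above all 10 arrays at 0 and 1 ppm, by more than 2 log2 units, and the groups from 5 to 40 ppm overlapped with each other. Its 40 ppm mean was at least 8.87-fold its 0 ppm mean, and its slope was 0.75 ± 0.027 (SE; limma adjusted p = 4.55e-18). The correlation of its 6 means with the step was 0.997, with 3 of 5 arrays dim at 0 ppm and 3 of 5 at 1 ppm. It was higher in the low segment (adjusted p = 7.42e-16), and its middle segment was 0.11 (adjusted p = 0.731).

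Other interferon genes took the same step. Oasl2 had log2 levels of 7.21, 6.91, 7.03, 6.98 and 7.36 at 0 ppm, 6.66, 6.81, 7.0, 6.79 and 6.87 at 1 ppm and 10.25, 10.04, 9.54, 10.39 and 10.15 at 5 ppm. Its arrays had 10.04, 10.43, 10.36, 9.97 and 10.38 at 10 ppm, 9.77, 10.24, 9.64, 10.16 and 9.71 at 20 ppm and 9.81, 9.63, 9.8, 9.64 and 9.87 at 40 ppm. This antiviral oligoadenylate synthetase-like gene had the smallest slope p of all genes (slope 0.64 ± 0.021 SE, adjusted p = 4.34e-19), and no array at 5 ppm or above overlapped with those below. Oasl1, its relative that restrains Irf7 translation, averaged 4.8, 4.72, 8.26 and 8.6 at 0, 1, 5 and 40 ppm, with all air arrays dim, and was at least 5.73-fold above air at 40 ppm. Usp18, which removes the ubiquitin-like Isg15 and damps interferon receptors, averaged 8.08 ± 0.05 at 0 ppm, 10.48 ± 0.35 at 5 ppm and 10.46 ± 0.18 at 40 ppm (SD, n = 5 each), 5.19-fold higher at 40 ppm than at 0 ppm. Oas1g, whose gene has close copies that the probe set may also read, was 5.73-fold higher at 40 ppm, with means of 7.14, 7.12, 10.09, 10.19, 9.66 and 9.66 from 0 to 40 ppm. Dhx58, a cytoplasmic sensor of viral RNA, and Zbp1, a sensor of Z-form nucleic acid, were each at least 4.86-fold higher at 40 ppm than at 0 ppm. Apol9a, which also has a close copy, was dim on all 10 arrays at 0 and 1 ppm and higher in the low segment (adjusted p = 7.42e-16), at least 4.62-fold above air at 40 ppm.

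Genes that interferon-gamma induces most strongly also took the step between 1 and 5 ppm. Of the 8 measured interferon-gamma GTPases, which guard against intracellular microbes, 7 rose, against 14.7% of all genes, and none fell. In the low segment 7 of the GTPases were higher and in the top segment 5 were lower, against 2.36% and 2.52% of all genes. Their median difference from 0 ppm was 1.35 at 5 ppm, 1.72 at 10 ppm and 0.922 at 40 ppm. Irgm1 averaged 7.71 ± 0.3, 9.26 ± 0.22, 9.54 ± 0.15 and 8.74 ± 0.51 at 0, 5, 10 and 40 ppm (SD, n = 5 each), and its top segment was -0.66 (adjusted p = 0.0122). Tgtp1, which has a close copy, had a low segment of 1.84 (adjusted p = 1.39e-07) and a top segment of -0.72 (adjusted p = 0.0213). In the list of MHC class I and immunoproteasome genes 5 of 7 rose, all 5 in the low segment, among them Nlrc5, the activator of class I genes, and the immunoproteasome subunit Psmb8 (low segment of 0.71). MHC class II genes present antigen on macrophages, dendritic cells and B cells. Their slopes were mostly negative, with 5 of 8 lower and 1 higher, against 14.6% of all genes lower. None was lower in the low segment. Their median difference from 0 ppm was -0.168, -0.12, -0.0927, -0.449 and -0.375 at 1, 5, 10, 20 and 40 ppm. H2-Eb1 averaged 10.99 ± 0.18 at 0 ppm, 10.4 ± 0.14 at 20 ppm and 10.44 ± 0.16 at 40 ppm (SD, n = 5 each).

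Short sequences that Irf factors, E2F, the mitotic DREAM complex, Srebp2 and the Ah receptor are known to bind were looked for on both strands in the RefSeq windows from 250 bases before to 50 bases after gene starts (GRCm38.p6). GAAANNGAA was in 8 of the 14 interferon response genes with a slope and a window (57.1%), against 9.76% of all 27025 genes. TTTCCCGC or TTTGGCGC was in 10 of 26 DNA replication genes (38.5%), against 1.8% of all genes. TTTGAA was in 13 of 16 mitosis genes (81.2%), against 20.2%. TCACCCCAC was in 1 of 13 sterol genes (7.69%), against 0.614%, and TNGCGTG was in 0 of 13 xenobiotic metabolism genes, against 5.84%. The windows are short and these counts describe letters only. The 250 bases before the start of 5 genes with a match follow, 5′ to 3′ on the gene's strand. Matches are in capitals, and a match on the other strand appears as its reverse complement. Of the 5 genes only Ifit3 and Rsad2 share a motif. Ifit3, Rsad2, Mcm6 and Hmgcs1 were chosen after their values were seen. Ifit3 and Rsad2 are antiviral interferon genes, Mcm6 is part of the replicative helicase, Cdk1 is the kinase that starts mitosis, and Hmgcs1 makes the precursor that enters sterol synthesis.
Ifit3, chr19:34583279-34583528, plus strand: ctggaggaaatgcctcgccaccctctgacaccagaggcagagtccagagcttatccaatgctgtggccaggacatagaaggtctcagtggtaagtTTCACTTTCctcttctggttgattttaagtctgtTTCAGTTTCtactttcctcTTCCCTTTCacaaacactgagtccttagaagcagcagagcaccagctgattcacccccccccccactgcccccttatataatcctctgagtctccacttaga
Rsad2, chr12:26456453-26456702, minus strand: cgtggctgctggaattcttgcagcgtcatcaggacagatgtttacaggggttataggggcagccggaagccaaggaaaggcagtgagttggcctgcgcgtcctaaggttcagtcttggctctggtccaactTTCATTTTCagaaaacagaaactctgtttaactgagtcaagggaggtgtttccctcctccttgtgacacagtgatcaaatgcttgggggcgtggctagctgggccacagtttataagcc
Mcm6, chr1:128359706-128359955, minus strand: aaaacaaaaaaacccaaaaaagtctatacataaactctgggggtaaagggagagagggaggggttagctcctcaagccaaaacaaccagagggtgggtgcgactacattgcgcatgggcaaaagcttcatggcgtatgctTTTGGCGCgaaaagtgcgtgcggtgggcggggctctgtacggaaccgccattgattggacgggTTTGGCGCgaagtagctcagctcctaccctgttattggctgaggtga
Cdk1, chr10:69352913-69353162, minus strand: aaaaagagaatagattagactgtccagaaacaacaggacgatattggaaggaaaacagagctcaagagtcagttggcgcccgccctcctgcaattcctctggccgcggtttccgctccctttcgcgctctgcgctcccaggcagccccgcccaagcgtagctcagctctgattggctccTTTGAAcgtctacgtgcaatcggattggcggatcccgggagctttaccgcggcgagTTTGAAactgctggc
Hmgcs1, chr13:119690101-119690350, plus strand: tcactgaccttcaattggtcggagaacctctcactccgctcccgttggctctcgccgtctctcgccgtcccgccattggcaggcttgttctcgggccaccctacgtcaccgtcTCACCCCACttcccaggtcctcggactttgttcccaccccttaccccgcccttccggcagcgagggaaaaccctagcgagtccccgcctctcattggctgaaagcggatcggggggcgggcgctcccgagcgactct

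From 0 to 40 ppm Ifit3 averaged 8.67, 7.97, 11.3, 11.6, 11.3 and 10.8, and Rsad2 6.86, 6.38, 9.46, 10.6, 10.2 and 9.6, both with the jump between 1 and 5 ppm. Mcm6 averaged 7.61, 7.46, 8.28, 8.73, 8.62 and 8.45 and Hmgcs1 4.05, 4.02, 4.11, 4.23, 4.67 and 4.63, with every group mean of Hmgcs1 under the highest nonspecific control of all arrays but 5 ppm replicate 4.

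**Figure D4:**
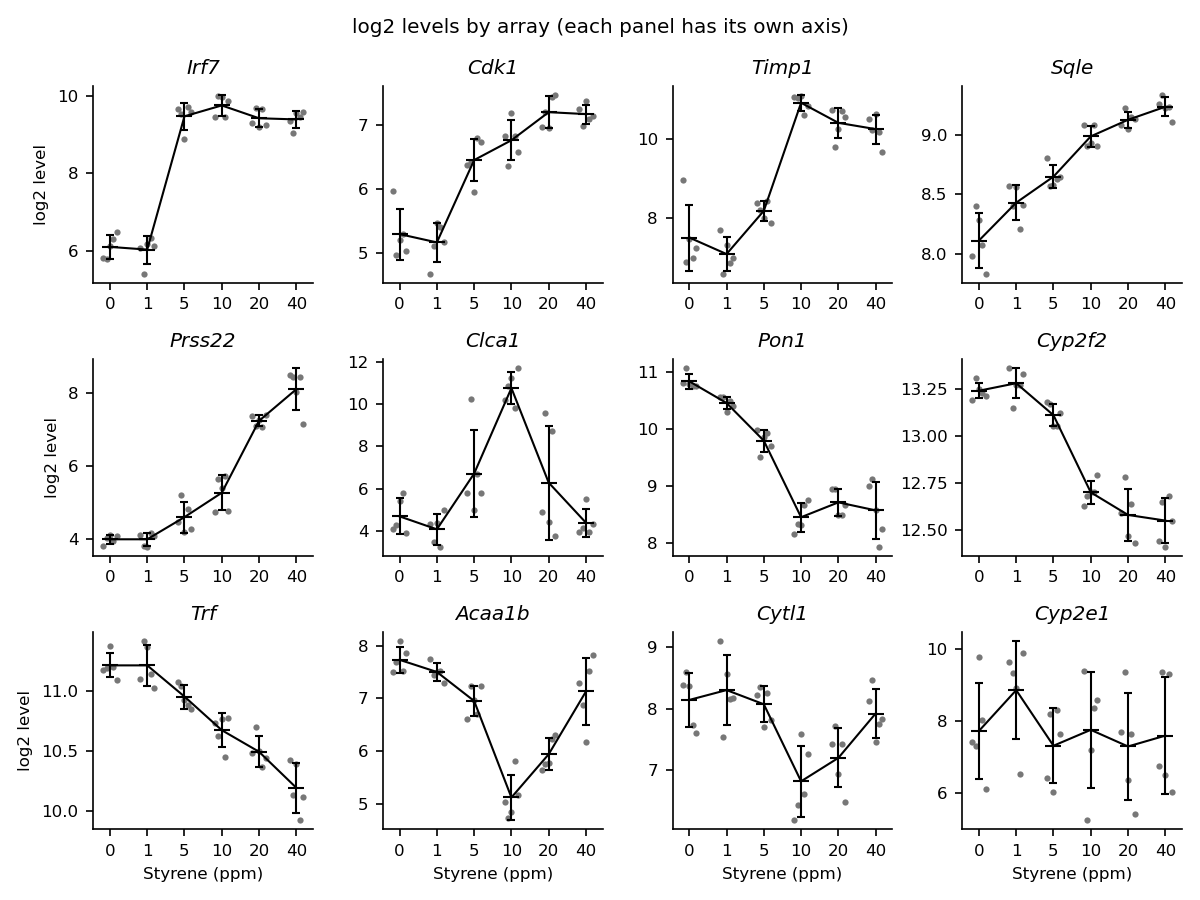
log2 levels (vertical axes, each panel on its own scale) by styrene dose in ppm for 12 genes, with 1 grey point per array and black bars for the mean and SD of 5 arrays. Irf7 steps up between 1 and 5 ppm, Timp1 between 5 and 10 ppm, Sqle climbs at every dose, Trf declines from 5 ppm upward, Prss22 climbs to 40 ppm, Clca1 peaks at 10 ppm, and Acaa1b and Cytl1 dip at 10 ppm.

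DNA replication genes also rose at 5 ppm. Of 31 measured genes 30 rose, against 14.7% of all genes, and none fell; 23 were higher in the low segment, against 2.36% of all genes, 26 matched a step and 12 of the 31 were dim on average. The median difference from 0 ppm was -0.102, 0.513, 0.831, 0.875 and 0.542 at 1, 5, 10, 20 and 40 ppm. Uhrf1, which maintains DNA methylation at replication forks, averaged 5.1, 5.03, 6.71, 7.29 and 7.18 at 0, 1, 5, 10 and 40 ppm, with every array at 0 and 1 ppm dim, and was at least 2.15-fold above air at 40 ppm. Mcm5, a helicase subunit, was dim on all arrays at 0 and 1 ppm and on 2 of 5 at 5 ppm, and was higher in the low segment (adjusted p = 6.06e-06) and again in the middle segment (adjusted p = 0.0038). Tk1, which makes thymidine nucleotides, averaged 4.72, 4.58, 5.94, 6.3, 6.63 and 6.77 from 0 to 40 ppm and matched a line by a margin in r of 0.011. Its arrays were all dim at 0 and 1 ppm, with 3 of 5 dim at 5 ppm, and it was at least 1.62-fold above air at 40 ppm.

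Most mitosis genes rose as well. Of 28 measured genes 21 rose, against 14.7% of all genes, and none fell, 11 in the low segment and 8 in the middle segment; 8 matched a line and 12 a step, and 24 of the 28 were dim on average. With genes below the median gene left out 4 mitosis genes rose. The median difference from 0 ppm was -0.07, 0.219, 0.375, 0.586 and 0.368 at 1, 5, 10, 20 and 40 ppm. Cdk1 had log2 levels of 5.97, 4.97, 5.2, 5.29 and 5.03 at 0 ppm, 4.67, 5.11, 5.46, 5.4 and 5.16 at 1 ppm and 6.37, 6.42, 5.95, 6.79 and 6.73 at 5 ppm. Its arrays had 6.83, 6.36, 7.19, 6.82 and 6.58 at 10 ppm, 6.96, 7.2, 6.95, 7.44 and 7.47 at 20 ppm and 7.25, 6.98, 7.38, 7.1 and 7.14 at 40 ppm. The 20 and 40 ppm arrays were at 6.95 or higher and the 0 and 1 ppm arrays at 5.97 or lower, while the 5 ppm arrays overlapped with those of 0 and 10 ppm and the 10 ppm arrays with those of 5, 20 and 40 ppm. All Cdk1 arrays at 0 and 1 ppm were dim, and the 40 ppm mean was at least 2.13-fold above air. Pbk, a mitotic kinase, averaged 5.09, 4.99, 6.33, 6.69, 7.05 and 6.81 from 0 to 40 ppm, was dim on all arrays at 0 and 1 ppm, and was higher in the low segment (adjusted p = 2.2e-06).

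Apart from interferon and replication genes, Gsta2 and Afp also took the step between 1 and 5 ppm. Gsta2, a glutathione transferase with close copies, averaged 6.4 ± 0.22, 6.27 ± 0.43, 8.49 ± 0.29 and 8.11 ± 0.56 at 0, 1, 5 and 40 ppm (SD, n = 5 each), 4.28-fold higher at 5 ppm than at 0 ppm. A second Gsta2 probe set of similar brightness (mean 7.22, against 7.64 for the one used) had a slope of -0.153, against 0.408. Afp, the fetal serum protein alpha-fetoprotein, was dim on all 10 arrays at 0 and 1 ppm and averaged 7.07 at 5 ppm, at least 1.99-fold above air (slope adjusted p = 7.2e-11). In the list of Nrf2 and glutathione genes, which protect against oxidants and electrophiles, 14 of 20 rose and 2 fell, against 14.7% and 14.6% of all genes. In the low segment 9 were higher, against 2.36%. The falling pair were the transferases Gstm1 and Gstm3. Without the 0 ppm arrays 9 of the 20 rose. Few genes fell in the low segment. Nsd1, a histone methyltransferase, had a low segment of -0.44 (adjusted p = 1.5e-05), which was not called with the mean of its probe sets, and Peak1, a cytoskeletal pseudokinase, one of -0.4 (adjusted p = 0.000317).

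Matrix and acute-phase genes stepped up between 5 and 10 ppm. Of 18 collagen and matrix genes 13 rose, against 14.7% of all genes, and none fell, 13 were higher in the middle segment, against 3.95% of all genes, and 1 was higher in the low segment. The median difference was 0.119, 0.0798, 0.592, 0.406 and 0.466 at 1, 5, 10, 20 and 40 ppm. Timp1 had log2 levels of 8.95, 6.88, 7.45, 6.97 and 7.22 at 0 ppm, 7.68, 6.57, 7.31, 6.83 and 6.96 at 1 ppm and 8.38, 8.19, 8.0, 8.43 and 7.85 at 5 ppm. Its arrays had 11.07, 11.03, 11.09, 10.61 and 10.83 at 10 ppm, 10.74, 9.8, 10.25, 10.71 and 10.55 at 20 ppm and 10.5, 10.24, 10.64, 10.18 and 9.68 at 40 ppm. The 15 arrays at 10 ppm and above lay above every array below that dose, and 0 ppm replicate 1 was higher than all the 5 ppm arrays. Timp1, an inhibitor of matrix metalloproteinases, was 10.8-fold higher at 10 ppm and 6.74-fold higher at 40 ppm than at 0 ppm. Its slope was 0.71 ± 0.043 (SE, adjusted p = 2.5e-13), and 0.763 ± 0.0319 without 0 ppm replicate 1. Tnc, the matrix glycoprotein tenascin C, was dim on 14 of the 15 arrays up to 5 ppm and averaged 7.41 ± 0.11 at 10 ppm and 6.38 ± 0.61 at 40 ppm (SD, n = 5 each). It was higher in the middle segment (adjusted p = 2.11e-09) and lower in the top segment (adjusted p = 0.00763), with 2 of 5 arrays dim at 40 ppm, and at least 2.51-fold above air at 10 ppm. Col4a1, a basement membrane collagen, rose 1.46-fold at 40 ppm over 0 ppm, with a middle segment of 0.55 (adjusted p = 1.27e-06).

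Of 9 acute-phase genes 7 rose and 1, Hp, fell, against 14.7% and 14.6% of all genes. In the middle segment 5 were higher and in the top segment 3 were lower, against 3.95% and 2.52%. Serpina3n, a secreted protease inhibitor, averaged 8.84 ± 0.17, 8.87 ± 0.26, 9.15 ± 0.23, 10.63 ± 0.17, 10.63 ± 0.14 and 10.55 ± 0.29 at 0, 1, 5, 10, 20 and 40 ppm (SD, n = 5 each). Its lowest array at 10 ppm read 10.39 and its highest at 5 ppm 9.42, so the groups did not overlap (r = 0.992). Saa3, the serum amyloid made in inflamed tissue, averaged 5.12, 6.6, 9.81, 9.47 and 8.43 at 1, 5, 10, 20 and 40 ppm, at least 9.44-fold above air at 10 ppm with the high air array included. Lcn2, which binds iron carriers of bacteria, moved at both steps, by 0.75 in the low segment (adjusted p = 1.5e-05) and 1.11 in the middle segment (adjusted p = 5.2e-08). Socs3, a brake on Stat3 signalling, averaged 7.16, 7.42, 7.7, 8.53, 8.73 and 8.75 from 0 to 40 ppm.

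Of 20 cytokine and chemokine genes 8 rose, against 14.7% of all genes, and none fell. However, 17 of the 20 were dim on average, and 1 rose with genes below the median gene left out. Il6 and Ccl2, which raise the acute-phase response and draw monocytes, were dim on every 0 and 1 ppm array and were higher in the middle segment (adjusted p = 3.21e-05 and 0.000465). Il6 was also dim on 5 of 5 arrays at 5 ppm and 3 of 5 at 10 ppm, and Ccl2 on 4 of 5 and 2 of 5, so that their peaks were at least 1.11-fold and 1.3-fold above air. Il33, an epithelial alarmin, averaged 8.71 ± 0.28, 9.49 ± 0.38, 10.32 ± 0.11 and 9.64 ± 0.35 at 0, 5, 20 and 40 ppm (SD, n = 5 each), 3.06-fold higher at 20 ppm than at 0 ppm. Of 6 neutrophil markers 1 fell and none rose, and 4 were dim on average. Array means of that list ran from 5.128 to 6.271 at 10 ppm and above and from 5.443 to 7.394 at 0 and 1 ppm, and without 0 ppm replicate 1 none of the 6 was called, against 4 lower without 0 ppm replicate 2.

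Repair keratins and growth factors rose over a wider range of doses. Of 13 measured genes 9 rose, against 14.7% of all genes, and none fell. In the middle segment 7 were higher, against 3.95%, and 4 genes matched a line and 4 a step. The median difference was 0.2, 0.362, 0.818 and 0.816 at 5, 10, 20 and 40 ppm. Sprr1a, a squamous envelope protein, was 6.04 ± 0.21, 8.8 ± 0.41, 8.08 ± 0.46 and 7.42 ± 0.72 at 5, 10, 20 and 40 ppm (SD, n = 5 each), at least 6.6-fold above air at 10 ppm. Hbegf, a ligand of the EGF receptor, averaged 8.73, 8.71, 8.79, 9.79, 10.64 and 10.44 from 0 to 40 ppm, so its first 3 groups were level within their spread. Krt19, a keratin of simple epithelia, averaged 11.09, 10.9, 11.29, 11.65, 11.91 and 12.08 from 0 to 40 ppm and was 1.99-fold above air at 40 ppm. A line was its closest shape, but it departed from one (adjusted p = 0.0169). Slc26a4, an anion exchanger, was higher in the middle segment (adjusted p = 3.01e-09), with all arrays dim at 0 and 1 ppm and 3 of 5 at 5 ppm. Slc26a4 had log2 levels of 4.81, 4.36, 4.97, 4.72 and 5.08 at 0 ppm, 5.31, 4.62, 5.14, 4.72 and 5.19 at 1 ppm and 5.91, 5.5, 5.45, 5.44 and 5.6 at 5 ppm. Its arrays had 8.66, 9.29, 8.84, 8.15 and 8.92 at 10 ppm, 8.4, 8.16, 7.47, 7.89 and 8.01 at 20 ppm and 6.26, 6.77, 8.25, 6.28 and 6.7 at 40 ppm. The 10 and 20 ppm arrays lay above all arrays up to 5 ppm, and 40 ppm replicate 3, at 8.25, stood above the other 40 ppm arrays. Slc26a4 was at least 6.47-fold above air at 10 ppm, and its top segment was -1.52 (adjusted p = 0.000381).

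**Figure D5:**
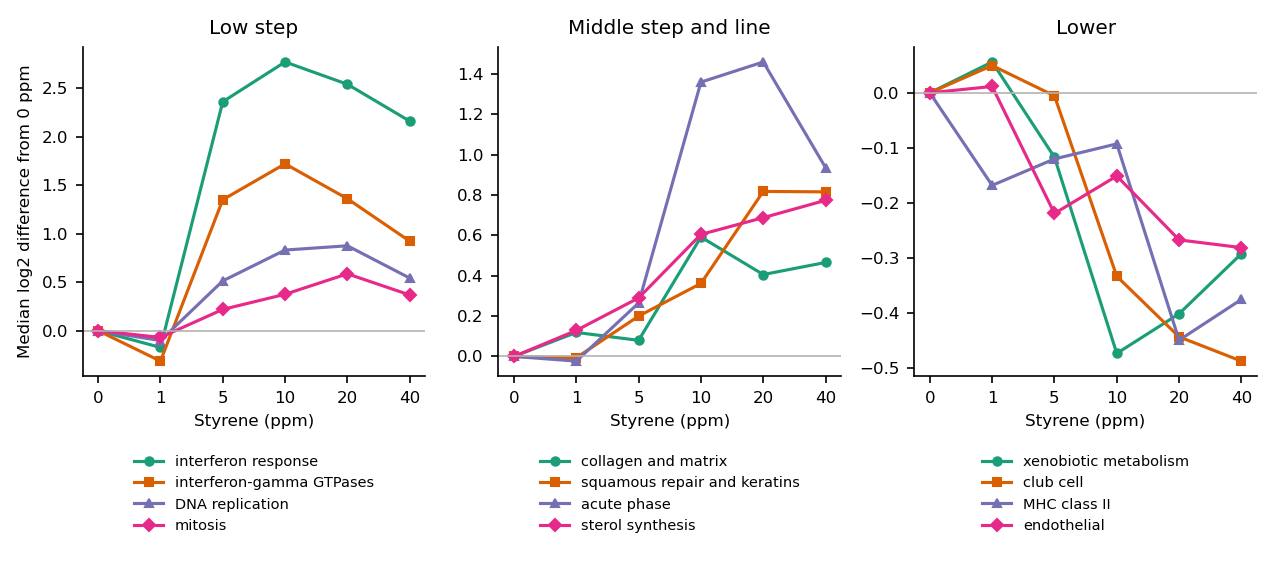
Median over the measured genes of each list of the log2 difference from 0 ppm (vertical axes, each panel on its own scale) by styrene dose in ppm. The interferon response list reaches 2.36 at 5 ppm, the collagen and matrix list 0.592 at 10 ppm, the sterol synthesis list climbs at every dose to 0.774, and the xenobiotic metabolism list falls to -0.473 at 10 ppm.

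Genes of xenobiotic metabolism stepped down between 5 and 10 ppm. Of 22 measured genes 13 fell, against 14.6% of all genes, and 2 rose; 12 were lower in the middle segment, against 8.5% of all genes, and 2 in the low segment. The median difference was 0.056, -0.117, -0.473, -0.401 and -0.292 at 1, 5, 10, 20 and 40 ppm. Cyp2f2 had log2 levels of 13.19, 13.31, 13.25, 13.23 and 13.21 at 0 ppm, 13.36, 13.15, 13.27, 13.27 and 13.33 at 1 ppm and 13.18, 13.17, 13.05, 13.05 and 13.12 at 5 ppm. Its arrays had 12.63, 12.68, 12.7, 12.7 and 12.79 at 10 ppm, 12.59, 12.78, 12.47, 12.64 and 12.43 at 20 ppm and 12.44, 12.65, 12.41, 12.68 and 12.55 at 40 ppm. The air and 1 ppm arrays overlapped, and all 15 arrays at 10 ppm and above lay below every other array. Cyp2f2 was 1.62-fold lower at 40 ppm than at 0 ppm (slope -0.16 ± 0.01 SE, adjusted p = 1.37e-12). Cyp2e1 showed no slope (adjusted p = 0.464): it spread from 6.04 to 9.35 at 40 ppm and from 6.12 to 9.78 at 0 ppm, wider than any difference between dose means.

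Pon1, a lactonase that also hydrolyses toxic esters, was lower at each dose up to 10 ppm. Pon1 had log2 levels of 10.81, 11.07, 10.8, 10.75 and 10.76 at 0 ppm, 10.56, 10.56, 10.3, 10.49 and 10.4 at 1 ppm and 9.99, 9.51, 9.87, 9.94 and 9.71 at 5 ppm. Its arrays had 8.17, 8.35, 8.33, 8.67 and 8.76 at 10 ppm, 8.95, 8.96, 8.5, 8.5 and 8.67 at 20 ppm and 9.0, 9.13, 8.59, 7.94 and 8.26 at 40 ppm. No array overlapped between 0, 1 and 5 ppm, each lower than the dose before, and the arrays at 10, 20 and 40 ppm overlapped with each other. The difference of 1 ppm from air was not among the called ones. Pon1 was 4.77-fold lower at 40 ppm than at 0 ppm (slope -0.48 ± 0.025 SE, adjusted p = 1.26e-14), with a low segment of -0.85 and a middle segment of -1.22. Pon1 is also made in liver, and hepatocyte marker levels varied between arrays. At 0 ppm the mean of those markers ran from 3.801 to 8.575 and Pon1 from 10.75 to 11.07. The part of these markers in the Pon1 values was not tested. Ces1d, a carboxylesterase of a family with close copies, averaged 11.48 ± 0.05 at 0 ppm, 11.29 ± 0.09 at 5 ppm and 10.49 ± 0.06 at 10 ppm (SD, n = 5 each), a step seen on every array. Aox3, an aldehyde oxidase, was 2.75-fold lower at 40 ppm than at 0 ppm.

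The falling step was not limited to enzymes of foreign compounds. Among the 10 genes with the smallest p for a falling slope were Slc4a5, a bicarbonate transporter (at least 3.16-fold lower at 40 ppm), Ldhb, a lactate dehydrogenase subunit (2.39-fold lower), Acss1, a mitochondrial acetyl-CoA synthetase (2.3-fold lower), Elapor1, an endosomal membrane protein (2.56-fold lower), and Tcp11l2 (1.91-fold lower). Slc4a5 averaged 7.9, 7.67, 7.47, 6.23, 6.19 and 6.21 from 0 to 40 ppm, so it was level from 10 ppm upward. Lpar3, a receptor for lysophosphatidic acid, averaged 7.94, 7.9, 8.08, 6.92, 6.68 and 6.72, a step with r = -0.988. Cldn8 and Pnma1 matched a falling step most closely but were dim at nearly all doses, so no fold is given. Igfbp3, which binds insulin-like growth factors, was 2.92-fold lower at 40 ppm than at 0 ppm, with a middle segment of -1.35 (adjusted p = 1.29e-06). In the IGF list 3 of 9 genes fell and 2 rose, against 14.6% and 14.7% of all genes.

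Club cell markers fell as a whole. All 6 measured markers had a falling slope, against 14.6% of all genes. In the middle segment 5 were lower, against 8.5%, and none in the low segment. Their array means were 12.51 to 12.67 at 0 ppm, 12.56 to 12.68 at 5 ppm, 12.23 to 12.37 at 10 ppm and 11.98 to 12.17 at 40 ppm, with no overlap between 5 and 10 ppm. Cckar, a cholecystokinin receptor, averaged 9.92, 9.87, 10.04, 9.27, 8.95 and 8.6 from 0 to 40 ppm and went on falling in the top segment (-0.51, adjusted p = 0.000568), to 2.49-fold below air. Scgb3a2, a secretoglobin, averaged 12.67 ± 0.13 at 40 ppm and 13.24 ± 0.06 at 0 ppm (SD, n = 5 each). Scgb1a1 averaged 13.75 ± 0.05 at 40 ppm and 13.9 ± 0.04 at 0 ppm (SD, n = 5 each), a slope of -0.03 that was not called after a repeated quantile normalisation or without the 40 ppm arrays. The ciliated cell list had 1 of 7 lower, the alveolar type 2 list 1 of 6 higher and 1 lower, and the alveolar type 1 list 2 of 6 higher and 1 lower. Endothelial and fibroblast markers each had 5 of 8 lower and none higher, against 14.6% and 14.7% of all genes. Kdr, the VEGF receptor, was 1.5-fold lower at 40 ppm and Dcn, the matrix proteoglycan decorin, 1.79-fold lower. Cd2, a T cell surface protein, was 1.91-fold lower at 40 ppm. Of 6 T cell markers it alone was called, and 5 were dim on average. Csf1r, a macrophage growth factor receptor, was 1.49-fold lower, with 1 of 6 monocyte markers lower and 1 higher. Marco, a macrophage scavenger receptor, was 1.59-fold higher, with 3 of 7 alveolar macrophage markers higher and 1 lower. Smooth muscle markers had 3 of 5 higher, among them Acta2, but 0 of 5 without the 0 ppm arrays, and their array means were 7.811 to 9.298 at 1 ppm and 7.37 to 8.117 in air.

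Sterol synthesis genes rose over the whole range. Of 19 measured genes 17 rose, against 14.7% of all genes, none fell, and 11 matched a line. The median difference climbed at every dose, 0.129, 0.29, 0.605, 0.688 and 0.774 at 1, 5, 10, 20 and 40 ppm. Sqle had log2 levels of 7.98, 8.4, 8.28, 8.07 and 7.83 at 0 ppm, 8.57, 8.4, 8.56, 8.21 and 8.41 at 1 ppm and 8.81, 8.57, 8.58, 8.63 and 8.65 at 5 ppm. Its arrays had 9.09, 8.91, 8.93, 9.09 and 8.91 at 10 ppm, 9.09, 9.23, 9.05, 9.15 and 9.14 at 20 ppm and 9.26, 9.34, 9.23, 9.24 and 9.11 at 40 ppm. Neighbouring doses overlapped or touched except 10 ppm and 5 ppm, and the arrays at 40 and 0 ppm were fully apart. Sqle, the epoxidase that commits squalene to sterols, had a slope of 0.21 ± 0.013 (SE, adjusted p = 5.94e-13; departure adjusted p = 0.422) and was 2.18-fold higher at 40 ppm than at 0 ppm. Cyp51, a sterol demethylase, averaged 7.4 ± 0.41 at 0 ppm, 8.15 ± 0.18 at 5 ppm and 8.89 ± 0.21 at 40 ppm (SD, n = 5 each), a 2.79-fold rise. Lss, which closes the sterol rings, was at least 2.22-fold higher at 40 ppm. Fatty acid synthesis genes had no common direction, with 2 of 12 higher and 2 lower, near the shares of all genes (14.7% and 14.6%).

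Other genes also rose along a line. Adam8, a membrane protease of leukocytes and injured epithelium, averaged 6.15, 6.41, 7.01, 7.33, 7.66 and 8.28 from 0 to 40 ppm, the closest match to a line among rising genes that spanned at least 1 log2 unit (r = 0.992, departure adjusted p = 0.932). Ccdc86, a nucleolar protein, averaged 6.25, 6.47, 6.64, 6.91, 7.18 and 7.27, and was 2.03-fold higher at 40 ppm. Akr1b8, an aldehyde-reducing enzyme, was 2.87-fold higher and Txnrd1, a thioredoxin reductase, 1.52-fold higher at 40 ppm than at 0 ppm. In the ribosome biogenesis and proteasome lists lines were the smaller share. Ribosome biogenesis genes rose in 13 of 18 cases with none falling, against 14.7% of all genes higher and 14.6% lower. Among them was Rrp12 (at least 1.52-fold at 40 ppm), and 5 matched a line and 7 a step. Proteasome genes rose in 19 of 24 cases with none falling, by small amounts (median slope 0.0467), and 10 matched a hump or dip, 5 a line and 4 a step; Psmb6 was 1.3-fold higher at 40 ppm.

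Lines also ran downward. Trf had log2 levels of 11.17, 11.19, 11.37, 11.2 and 11.09 at 0 ppm, 11.1, 11.41, 11.36, 11.14 and 11.02 at 1 ppm and 11.07, 11.04, 10.92, 10.88 and 10.85 at 5 ppm. Its arrays had 10.73, 10.62, 10.76, 10.45 and 10.77 at 10 ppm, 10.48, 10.7, 10.5, 10.36 and 10.44 at 20 ppm and 10.42, 10.13, 10.39, 9.92 and 10.11 at 40 ppm. The air and 1 ppm arrays overlapped, and from 5 ppm each group mean was lower than the one before. Trf, the iron carrier transferrin, was 2.02-fold lower at 40 ppm than at 0 ppm (slope -0.2 ± 0.015 SE, adjusted p = 1.99e-11; departure adjusted p = 0.196). Crebrf, a regulator of the stress factor Creb3, and Arrdc3, an adaptor for receptor uptake, were 2.35-fold and 2.05-fold lower at 40 ppm. Among p53 targets, Sesn1, which restrains mTORC1, and Aen, a nuclease, matched steps; Sesn1 was 1.62-fold lower and Aen 1.67-fold higher at 40 ppm. In that list 3 of 14 genes rose and 5 fell, against 14.7% and 14.6% of all genes. Of 17 circadian genes 2 rose, near the share of all genes, Bhlhe40 among them (1.75-fold at 40 ppm), and 6 fell.

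Some genes rose mainly above 10 ppm. Prss22 had log2 levels of 3.8, 4.02, 4.09, 3.94 and 4.07 at 0 ppm, 4.1, 3.79, 3.77, 4.16 and 4.07 at 1 ppm and 4.46, 5.21, 4.19, 4.82 and 4.25 at 5 ppm. Its arrays had 4.74, 5.64, 5.39, 5.73 and 4.77 at 10 ppm, 7.37, 7.1, 7.25, 7.07 and 7.41 at 20 ppm and 8.5, 8.45, 8.04, 8.44 and 7.14 at 40 ppm. Every array at 20 ppm was above every array at 10 ppm, and 4 of the 5 at 40 ppm were above those at 20 ppm. Prss22, a tryptase-like protease of airway epithelium, was dim on 19 of the 20 arrays up to 10 ppm and at least 4.11-fold above air at 40 ppm. It was higher in the top segment (adjusted p = 2.35e-06), and without the 10 ppm arrays, all of them dim, the difference was 0.875 ± 0.203 (SE, adjusted p = 0.111). Of 17 immediate early genes, which respond within minutes to growth factors and stress, 9 rose and 1, Dusp1, fell, against 14.7% and 14.6% of all genes. In the top segment 7 were higher, against 5.91% of all genes, and in the low segment 2 were lower, against 0.48%. Egr1, a zinc finger transcription factor, averaged 7.95 ± 0.25, 8.39 ± 0.38, 7.95 ± 0.32, 8.64 ± 0.3, 9.25 ± 0.18 and 9.75 ± 0.35 at 0, 1, 5, 10, 20 and 40 ppm (SD, n = 5 each), 3.46-fold above air at 40 ppm. Junb, an AP-1 subunit, was 2.23-fold higher and Myc at least 2.18-fold higher at 40 ppm. Myc averaged 6.28, 6.34, 6.57, 6.87, 7.33 and 7.41 from 0 to 40 ppm, so its rise lay both below and above 10 ppm. Atf3, a stress-induced factor, averaged 5.77, 5.95, 6.24, 6.79, 7.63 and 8.08 from 0 to 40 ppm, at least 3.98-fold above air. The metallothionein Mt1, which binds zinc and is induced by glucocorticoids and metals, was 1.83-fold higher at 20 ppm than at 0 ppm. In its list of glucocorticoid targets 2 of 9 rose and 1 fell, against 14.7% and 14.6% of all genes.

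Other genes rose and came back within the range. Clca1 had log2 levels of 4.09, 4.28, 5.44, 5.78 and 3.92 at 0 ppm, 4.34, 3.48, 4.38, 3.26 and 5.02 at 1 ppm and 5.82, 10.24, 5.02, 6.7 and 5.81 at 5 ppm. Its arrays had 10.17, 10.85, 11.22, 9.8 and 11.69 at 10 ppm, 4.91, 9.59, 4.43, 8.75 and 3.77 at 20 ppm and 3.97, 4.16, 5.54, 3.96 and 4.34 at 40 ppm. All 5 arrays at 10 ppm read 9.8 to 11.69, the 5 and 20 ppm groups each held both high and low arrays, and all arrays at 0, 1 and 40 ppm read 5.78 or lower. Clca1, a secreted protease of goblet cells, was at least 25.5-fold above air at 10 ppm. It had no slope (adjusted p = 0.0955) and departed from a line (adjusted p = 2.84e-05). Agr2, a goblet cell chaperone for mucin, averaged 4.31, 5.47, 7.19, 8.14, 6.64 and 6.02 from 0 to 40 ppm, at least 4.17-fold above air at 10 ppm. In the mucous list Agr2 and Slc26a4 were the only genes of 12 with a slope, against 29.3% of all genes. Muc5ac, Muc5b and Spdef had none.

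Retnla and Ccl24, both marks of an allergic type of macrophage response, also peaked at 10 ppm. Retnla averaged 10.51 ± 0.27, 11.05 ± 0.16, 12.29 ± 0.14, 13.05 ± 0.06, 12.48 ± 0.18 and 11.73 ± 0.37 at 0, 1, 5, 10, 20 and 40 ppm (SD, n = 5 each), 5.82-fold above air at 10 ppm. Its best single shape was the step between 1 and 5 ppm, ahead of the next kind by 0.002 in r. All its 1 ppm arrays (10.86 to 11.2) lay above the air arrays (10.06 to 10.74), but the difference of 1 ppm from air was not called. Ccl24, the chemokine eotaxin-2, was dim on all arrays at 0, 1, 5 and 40 ppm and averaged 7.18 ± 0.59 at 10 ppm (SD, n = 5), and was lower in the top segment (adjusted p = 0.000227; without the 10 ppm arrays, adjusted p = 0.172).

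Genes of the unfolded protein and integrated stress responses split. Of 20 measured genes 10 rose, 5 of them with a hump, and none fell, against 14.7% and 14.6% of all genes. In the top segment 8 of the 20 were lower and 1 was higher, against 2.52% and 5.91%. The median difference was 0.243, 0.54, 0.313 and 0.108 at 5, 10, 20 and 40 ppm. Pdia4 and Pdia6, disulfide isomerases of the endoplasmic reticulum, peaked at 10 ppm. Pdia6 averaged 10.64 ± 0.14, 10.88 ± 0.1, 11.22 ± 0.04, 10.86 ± 0.11 and 10.56 ± 0.22 at 0, 5, 10, 20 and 40 ppm (SD, n = 5 each), 1.5-fold above air at 10 ppm with no array of another dose as high. Psat1, a serine synthesis enzyme under Atf4, stayed up instead, at 7.47, 7.7 and 7.58 at 10, 20 and 40 ppm, against 5.9 in air. Of 9 heat shock genes 1 rose and 2 fell, against 14.7% and 14.6% of all genes. Of these 9 genes 4 were lower in the top segment, against 2.52% of all genes. Hsph1, a co-chaperone, averaged 10.19, 10.37, 10.55, 10.98, 9.86 and 9.22 from 0 to 40 ppm. Hspa1b was the gene that rose, at 10.1 ± 1.46 in air, 11.56 ± 0.78 at 10 ppm and 11.53 ± 0.27 at 40 ppm (SD, n = 5 each). Cyp7b1, an oxysterol hydroxylase, and Malt1, a protease of lymphocyte signalling, matched a hump over 10 and 20 ppm. Malt1 was dim on most arrays outside 10 ppm and Cyp7b1 on most outside 10 and 20 ppm; Cyp7b1 was at least 1.5-fold above air at 20 ppm. Ppp1r14d, an inhibitor of myosin phosphatase, peaked at 5 ppm, where it averaged 6.7 ± 0.37 against 5.61 ± 0.14 in air and 5.73 ± 0.1 at 40 ppm (SD, n = 5 each); 5 of 5 air arrays and 4 of 5 at 40 ppm were dim.

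Among the 1166 genes that differed among the doses without a slope, 301 matched an upward hump and 653 a dip. Among falling genes with a slope 341 of the 491 that matched this kind of shape matched best a dip over 10 to 20 ppm. Of the 491, 156 were called higher in the top segment. For 170 of them the next best kind of shape lay within 0.05 in r. Acaa1b had log2 levels of 7.49, 7.68, 8.08, 7.52 and 7.86 at 0 ppm, 7.75, 7.45, 7.5, 7.52 and 7.29 at 1 ppm and 6.61, 7.23, 6.97, 6.71 and 7.24 at 5 ppm. Its arrays had 5.03, 4.74, 4.85, 5.82 and 5.17 at 10 ppm, 5.65, 5.76, 5.78, 6.22 and 6.31 at 20 ppm and 7.29, 6.88, 6.17, 7.51 and 7.82 at 40 ppm. The 10 ppm arrays were the lowest, below all arrays of the other doses but those at 20 ppm, and 4 of the 5 arrays at 40 ppm read 6.88 or higher, in the range of the 5 ppm arrays or higher. Acaa1b, a peroxisomal thiolase of fatty acid oxidation, was at least 3.23-fold lower at 10 ppm and 1.51-fold lower at 40 ppm than at 0 ppm. Fabp1, a fatty acid carrier, was at least 3.21-fold lower at 10 ppm and 2.34-fold lower at 40 ppm. It read 8.63 and 7.95 on 0 ppm replicates 3 and 4 and 8.46 on 1 ppm replicate 2, where hepatocyte markers averaged 8.575, 7.525 and 9.188, and 7.18 to 7.5 on the other air arrays. The part of these markers in its fall was not tested. In the fatty acid oxidation list 3 of 16 genes fell and 1 rose with a slope, against 14.6% and 14.7% of all genes. Of the 16, 3 were lower in the middle segment and 4 were higher in the top segment, against 8.5% and 5.91% of all genes.

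Cytl1, a small secreted protein of cartilage, averaged 8.14 ± 0.44 at 0 ppm, 6.82 ± 0.58 at 10 ppm and 7.92 ± 0.39 at 40 ppm (SD, n = 5 each), 2.49-fold lower at 10 ppm than at 0 ppm. Bex2, a small adaptor known from neurons, was 2.8-fold lower at 10 ppm and 1.52-fold lower at 40 ppm. Tef, a clock-controlled transcription factor, was 1.89-fold lower at 10 ppm and 1.3-fold lower at 40 ppm. Pitpnm3, a phosphatidylinositol transfer protein, averaged 7.14 ± 0.11 at 0 ppm, 6.45 ± 0.09 at 10 ppm and 7.23 ± 0.14 at 40 ppm, and Flvcr2, a choline transporter, 6.81 ± 0.06, 6.04 ± 0.1 and 6.81 ± 0.05 at the same doses (SD, n = 5 each), and the 40 ppm and air arrays of both genes overlapped. Smim4, a small mitochondrial protein, averaged 8.79 in air, 7.99 at 10 ppm and 9.14 at 40 ppm. Hdac11, a deacetylase, matched a dip as closely (r = -0.956) but was dim on nearly all arrays.

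Another common turn was at 1 ppm. Of the 329 rising genes that matched a hump or dip 104 matched a dip at 1 ppm, and 117 a hump over 10 to 20 ppm. At 1 ppm against 0 ppm only Cd300c2 was called, so these dips are template matches and not called differences. Slpi had log2 levels of 11.51, 10.39, 10.12, 9.63 and 9.74 at 0 ppm, 9.8, 9.3, 9.37, 8.88 and 9.41 at 1 ppm and 9.98, 10.7, 10.54, 9.91 and 9.71 at 5 ppm. Its arrays had 10.3, 10.38, 10.48, 10.48 and 10.45 at 10 ppm, 10.53, 10.39, 10.35, 10.41 and 10.37 at 20 ppm and 10.31, 10.34, 10.59, 9.91 and 10.53 at 40 ppm. Its 1 ppm arrays were mostly lower than those at other doses, and the air arrays ranged from 9.63 to 11.51, with replicate 1 the highest. Slpi, a secreted inhibitor of neutrophil elastase, was 1.9-fold lower at 1 ppm than at 0 ppm, a difference that was not called. Its slope of 0.1 (limma adjusted p = 0.0323) was 0.153 without 0 ppm replicate 1.

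At 120 ppm many of the rising trends did not go on. Of the 2511 rising genes 1220 (48.6%) had a higher mean at 120 ppm than at 40 ppm and 953 (38%) a lower mean at 120 ppm than in air; over all 17097 genes 58.8% were higher than at 40 ppm and 41.3% lower than in air. Of the 2499 falling genes 1037 (41.5%) had a higher mean at 120 ppm than at 40 ppm, against 58.8% of all genes. Below air at 120 ppm were 1746 of them (69.9%), against 41.3% of all genes. Irf7 averaged 9.77 ± 0.29, Prss22 9.12 ± 0.48 and Krt19 12.64 ± 0.19 at 120 ppm (SD, n = 5 each), at or above their 40 ppm means. Pdia6 averaged 9.28 ± 0.5 at 120 ppm and 10.64 ± 0.14 in air (SD, n = 5 each). Cyp51 and Gsta2 were dim on 4 of 5 arrays each at 120 ppm, where the highest nonspecific control was 6.712 to 7.362. The 120 ppm arrays also had higher poly-A control levels (7.242 to 8.085, against 5.656 to 6.478 on the other 30), whose part in these values was not tested.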

How the data were processed

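Whole-lung RNA was measured on 35 Affymetrix arrays, and the 30 at 0 to 40 ppm were fitted. The values were log2 probe set signals as deposited by the authors; per the submitters' processing notes they were made with RMA and Partek, with no version stated in the sources at hand. Of 45141 probe sets, 104 were controls, 28898 were listed for 1 gene, 551 for several and 15588 for none, and a gene was read through its brightest listed probe set.

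A mean per dose was fitted with limma 3.58.1 in R 4.3.3 (24 residual degrees of freedom). Contrasts gave the slope on log2(ppm + 1), the departure from a line, any difference and the segments, with Benjamini-Hochberg adjustment over 17097 genes and a threshold of 0.05. Adjusted p-values in the report come from this fit unless an alternative is named. Shapes used 1 line, 5 step and 10 hump templates. The code for slopes, segments and shapes was also run on simulated arrays with known patterns, as a check of the code only. Promoter windows were RefSeq's.

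The members, lists and tests were chosen with earlier results of these data known. Named genes were the 10 with the smallest slope p in each direction, 3 for each shape (group means spanning at least 1), segment and list in each direction, 5 with a difference but no slope, and Cyp2f2, Cyp2e1 and Scgb1a1; list members besides these are given as values. Alternatives changed the probe set, filter, normalisation, dose scale, dose range, threshold, weights, variance model, covariate, block and each array.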

Additional observations from a re-analysis of the deposited data

Results flagged for a closer look

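In 42 of 606 groups of 5 arrays, 1 for each of 101 genes and each dose, 1 array lay far from the other 4 by Dixon's criterion. Chance sets apart about 1 in 20 such groups. These arrays' values follow by dose, with the range of the other 4 arrays in parentheses. In air replicate 1 had Bex2 at 9.25 (8.12 to 8.34), Csf1r at 8.57 (8.14 to 8.25), Saa3 at 8.79 (4.9 to 5.73) and Timp1 at 8.95 (6.88 to 7.45) and replicate 2 had Afp at 5.24 (4.72 to 4.84), Cd2 at 7.35 (7.64 to 7.71), Flvcr2 at 6.91 (6.77 to 6.81) and Pon1 at 11.07 (10.75 to 10.81). At the same dose replicate 3 had Cyp7b1 at 5.72 (5.02 to 5.14) and replicate 4 had Mt1 at 10.96 (11.11 to 11.17). At 1 ppm replicate 1 had Scgb1a1 at 13.97 (13.9 to 13.91) and replicate 2 had Acta2 at 10.76 (11.46 to 11.71), Fabp1 at 8.46 (6.92 to 7.03) and Irf7 at 5.42 (6.09 to 6.35). At the same dose replicate 3 had Aox3 at 9.28 (9.91 to 10.01), Arrdc3 at 7.88 (9.08 to 9.57), H2-Eb1 at 10.97 (10.74 to 10.79) and Psmb8 at 9.61 (9.11 to 9.22) and replicate 5 had Nsd1 at 8.46 (8.61 to 8.63). At 5 ppm replicate 1 had Bhlhe40 at 8.9 (9.1 to 9.16) and Cyp51 at 8.47 (8.04 to 8.13) and replicate 2 had Arrdc3 at 8.38 (8.88 to 9.07). At the same dose replicate 3 had Dhx58 at 7.75 (8.41 to 8.63), Irf7 at 8.88 (9.54 to 9.71), Nlrc5 at 6.41 (7.02 to 7.25) and Zbp1 at 7.45 (8.23 to 8.52) and replicate 4 had Bex2 at 7.7 (8.03 to 8.12) and Txnrd1 at 9.49 (9.3 to 9.32). At the same dose replicate 5 had Junb at 6.76 (7.02 to 7.11). At 10 ppm replicate 1 had Csf1r at 7.99 (7.6 to 7.69) and replicate 3 had Il33 at 9.52 (10.11 to 10.28). At the same dose replicate 4 had Psmb8 at 9.95 (10.22 to 10.3) and replicate 5 had Dcn at 9.98 (9.3 to 9.49). At 20 ppm replicate 1 had Bex2 at 7.64 (7.01 to 7.16), Crebrf at 6.81 (7.05 to 7.12) and Junb at 8.14 (7.36 to 7.52) and replicate 4 had Atf3 at 6.75 (7.68 to 7.98). At 40 ppm replicate 2 had Cldn8 at 4.75 (3.83 to 4.08) and Dhx58 at 7.96 (8.42 to 8.54) and replicate 3 had Clca1 at 5.54 (3.96 to 4.34) and Slc26a4 at 8.25 (6.26 to 6.77). At the same dose replicate 4 had Tgtp1 at 9.84 (10.73 to 10.97).

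No array held more than 4 of these values. Without 0 ppm replicate 1 the slopes were 0.8516 for Saa3 and 0.7628 for Timp1, both still called. Array summaries gave 2 such arrays in 30 groups. The highest nonspecific control was 5.334 on 40 ppm replicate 2, against 5.993 to 6.26 on the other 4 arrays, and the 3′ minus 5′ actin signal was 0.1517 on 20 ppm replicate 5, against 0.1981 to 0.216. Outside the genes described above, 15588 probe sets have no gene listed in the annotation used. Among them 901 had a rising and 1940 a falling slope in limma (adjusted p under 0.05 over all non-control probe sets).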

How the results depend on the processing

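Gene counts were 5313 for any difference, 1985 for departure from a line, 2511 for rising slopes, 2499 for falling slopes, 485 for the low segment, 2129 for the middle segment, 820 for hump shapes, 985 for line shapes, 3205 for step shapes and 1441 for the top segment. With all non-control probe sets tested singly the count was 10699 for any difference, 3303 for departure from a line, 4627 for rising slopes, 5988 for falling slopes, 799 for the low segment, 3402 for the middle segment, 1664 for hump shapes, 2187 for line shapes, 6764 for step shapes and 2434 for the top segment. With a span of at least 1.5-fold required the count was 1957 for any difference, 990 for departure from a line, 985 for rising slopes, 830 for falling slopes, 980 for the middle segment, 269 for hump shapes, 351 for line shapes, 1195 for step shapes and 557 for the top segment. With the 120 ppm arrays added the count was 13040 for any difference, 10982 for departure from a line, 6855 for rising slopes, 5318 for falling slopes, 314 for the low segment, 1323 for the middle segment, 424 for hump shapes, 10787 for step shapes and 716 for the top segment. At an adjusted p under 0.1 the count was 3089 for departure from a line and 2518 for the top segment. With array weights the count was 3082 for departure from a line and 2169 for the top segment. With the slope on ppm the count was 3008 for departure from a line and 393 for hump shapes. Without the 10 ppm arrays the count was 619 for departure from a line and 0 for the top segment. Without the 40 ppm arrays the count was 915 for departure from a line and 323 for hump shapes. Without the 1 ppm arrays the count was 294 for the low segment and 462 for hump shapes. With the poly-A control level as a covariate the count was 974 for the low segment and 510 for the top segment. Without the 20 ppm arrays the count was 1243 for the middle segment and 353 for hump shapes. Without the air arrays the count was 321 for hump shapes. With the slope on log2(ppm + 0.1) the count was 497 for line shapes. The other 187 counts lay within 1.5 times their own, and the cause of each move was not tested, beyond the number of features, arrays or doses that a setting adds or removes. With 1 array left out at a time the counts ran from 4898 to 5628 for any difference, 1479 to 2251 for departure from a line, 2300 to 2604 for rising slopes, 2326 to 2569 for falling slopes, 323 to 567 for the low segment, 1656 to 2300 for the middle segment, 697 to 886 for hump shapes, 846 to 1098 for line shapes, 2976 to 3377 for step shapes and 564 to 1872 for the top segment.

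With the replicate number as a block the counts were 5920 for any difference, 2523 for departure from a line, 2663 for rising slopes, 2699 for falling slopes, 569 for the low segment, 2463 for the middle segment, 944 for hump shapes, 1008 for line shapes, 3410 for step shapes and 1932 for the top segment. Deviations of same-numbered arrays correlated at a median of 0.09754 over 75 pairs (-0.5077 to 0.64), against -0.04125 for other numbers. Of the 30 arrays 11 correlated best with an array of their own number. Whether the numbers pair the arrays was not tested. The share of rising genes among called slopes was 50.1%, 45.4% with arrays centred on their median gene and 52.6% after repeated quantile normalisation.

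For counts of rising and falling members of the lists, 2039 values lay within 1.5 times their own and 249 did not. Rising members ran over the settings from 17 to 20 for interferon response, 1 to 8 for interferon-gamma GTPases, 20 to 31 for DNA replication, 4 to 21 for mitosis, 1 to 12 for cytokines and chemokines, 4 to 8 for acute phase, 10 to 14 for collagen and matrix, 8 to 11 for squamous repair and keratins, 10 to 19 for sterol synthesis and 5 to 12 for unfolded protein and integrated stress response, and falling members from 9 to 19 for xenobiotic metabolism, 1 to 6 for MHC class II and 2 to 8 for fatty acid oxidation. The filters on dim genes gave the lowest counts for DNA replication, mitosis, cytokines and acute phase, and they leave fewer members to test.

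For the named genes' slopes and segments, settings other than the loss of 1 array gave 2505 values with the same direction and side of the threshold, 61 that lost the call, 22 that gained it and 24 of opposite sign. With 1 array left out they were 3549, 5 and 16, and none changed sign. With the slope on ppm the slopes of opposite sign were -0.0028 for Ccl24, -0.0182 for Clca1, 0.0016 for Flvcr2, -0.0019 for Pdia4, -0.0033 for Pdia6, 0.0012 for Pitpnm3 and -0.0063 for Ppp1r14d. With the 120 ppm arrays added the slopes of opposite sign were -0.0081 for Clca1, -0.0141 for Cyp51, -0.0046 for Cyp7b1, 0.0748 for Hdac11, -0.0545 for Irgm1, -0.0351 for Malt1, -0.1691 for Pdia4, -0.1384 for Pdia6, 0.05 for Pitpnm3, -0.0044 for Ppp1r14d, -0.0018 for Tgtp1 and -0.0169 for Txnrd1. Without the 40 ppm arrays the slopes of opposite sign were 0.0099 for Hsph1 and -0.0518 for Smim4. Without the air arrays the slopes of opposite sign were -0.0022 for Pdia6 and -0.0626 for Ppp1r14d. With the slope on log2(ppm + 5) the slopes of opposite sign were -8e-04 for Ppp1r14d. The Slpi slope was not called under 14 of all these settings, among them the loss of the 2 arrays of title number 15. Depth has no counterpart on arrays, and genes near the nonspecific controls have folds only as bounds.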
